A study of Mus musculus with 9 samples.

Results

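The response of OB-6 osteoblastic cells to 30 min of parathyroid hormone (PTH) was read by setting the 3 arrays titled as 30 min of PTH treatment against the 3 titled as 0 min, which are 6 of the 9 arrays of the study. All 12488 probe sets of the array except the 66 control probe sets entered the comparison, and the genes below are described beyond the best-known immediate-early genes. OB-6 is an osteoblastic cell line of the mouse, and every array held total RNA from it. The groups differed in the labels only by the time of PTH (0, 30 or 60 min, with replicates a, b and c at each). The sources used here do not give the dose or form of PTH, the culture conditions or any serum change before treatment. Cultures handled for 30 min without PTH are not analysed here, so the effect of PTH and that of the time and handling between the 0 and 30 min arrays cannot be told apart. Nothing in the labels tells if replicates a, b and c are separate cultures, and every p-value therefore reflects only how far these arrays scatter, possibly for technical reasons.

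PTH acts on osteoblasts through the PTH receptor, a receptor coupled to G proteins that raises cyclic AMP and activates protein kinase A. That kinase phosphorylates the transcription factor CREB, which binds the cyclic AMP response element (CRE) and switches on genes within minutes without new protein synthesis. The receptor also signals through phospholipase C and the MAP kinase ERK, which act on the serum response element of the same early genes, and in bone cells these genes precede the slower changes in matrix, protease and cytokine genes.

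Each probe set had 1 linear intensity per array. The arrays had been brought to 1 scale before deposit: the mean intensity without the top and bottom 2% lay between 249.5 and 250 on all 9 arrays. The median intensity was 82.31 to 85.92 at 0 min and 76.32 to 88.52 at 30 min (exact two-sided permutation test, p = 0.9, with 0.1 the smallest p that 3 arrays against 3 allow). The 3′ over 5′ ratio of the actin control, a measure of RNA integrity, was 0.341 to 0.809 at 0 min and 0.302 to 0.657 at 30 min (p = 0.7, same exact test). The number of arrays limits the precision. Of the probe sets, 7884 were bright enough to be tested, which means an intensity above 44.69 on at least 3 of the 9 arrays, and 10833 of all probe sets carried exactly 1 gene symbol. Differences are given as log2 fold changes of the intensity with 11.8 added, a constant that shrinks the fold change of dim probe sets. Each has a standard error (SE) from the model fitted to all 9 arrays. Its variance was pooled over the times and drawn towards that of probe sets of like brightness. The SE of a probe set is thus the same for every pair of times and does not measure the scatter of the 0 and 30 min arrays alone.

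The markers of the osteoblast lineage were largely present at 0 min. The collagen I chains Col1a1 (3318, 3083 and 5025 at 0 min and 4615, 5067 and 4464 at 30 min) and Col1a2 (5039, 5607 and 5511 at 0 min and 5549, 4868 and 5149 at 30 min) and the matrix proteins Sparc and Bgn were among the bright probe sets, and alkaline phosphatase, Alpl, read 227, 245 and 230.4 at 0 min and 249.3, 265 and 247 at 30 min. Ibsp, a mineral-binding sialoprotein, read 119, 118 and 115 at 0 min and 96.5, 116 and 118 at 30 min. The PTH receptor gene itself, Pth1r, was dim: 16.1, 24.3 and 6.70 at 0 min and 41.6, 33.9 and 27.9 at 30 min, all under the level needed for testing, so it was not tested. Runx2, Sp7 and Bglap matched no probe set by name. Of the markers of other cell types, 4 of 10 adipocyte, 7 of 15 haematopoietic and osteoclast, 5 of 12 skeletal muscle, 3 of 9 chondrocyte and 0 of 9 endothelial genes on the array were bright enough to be tested, and 0 of these were called changed. Their summed intensity overlapped between the times, except that the adipocyte sum was 815 to 1062 at 0 min and 1097 to 1189 at 30 min, mostly Lep and Cebpa, with the defining adipocyte genes Pparg and Fabp4 under 90 on every array. The part of those genes in the results below was not tested.

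At 30 min, 74 of the 7884 probe sets differed from 0 min at an adjusted p under 0.05, which is 0.939% of those tested: 38 were higher (0.482%) and 36 were lower (0.457%). The split moved towards falls under other scalings, to 52 higher and 92 lower after quantile normalization, 40 and 61 with a common 75th percentile and 32 and 60 after cyclic loess. In RNA from a whole culture, fewer cells of a kind and less message per cell cannot be told apart. The rises came from 35 genes. The falls came from 31 genes and 5 probe sets with no single gene symbol, which fell by between 1.30 and 1.90 on the log2 scale. At an unadjusted p under 0.05 there were 1412 probe sets (17.9%). The rises ran from 0.52 to 4.05 on the log2 scale with a median of 1.01, and the falls from 0.79 to 2.06 in size with a median of -1.43. The median of all tested probe sets was 0.0507. Of the 5936 tested genes, each by its brightest probe set, 3348 lay above 0 and 2588 below, the background for the lists that follow. By those probe sets 34 genes were called higher and 29 lower, together 1.061% of the tested genes. Called counts of the lists stand against that share. On all 74, the 3 arrays at 30 min lay wholly above or wholly below the 3 at 0 min. Of the 74, 7 were under the level needed for testing on every array of the lower time (2 rises, Fos and Unc5c, and 5 falls), so they entered the test through the arrays on which they are high; the 5 falls passed through the 0 min arrays alone and could only be called lower. At least 1 array of the lower time was under the level needed for testing for 5 rises and 13 falls, these 7 included. The size of those changes rests partly on dim values. Separation of the arrays alone is common here: all 30 min arrays lay above all 0 min arrays for 15.3% of the probe sets and below for 15.3%.

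**Figure D1:**
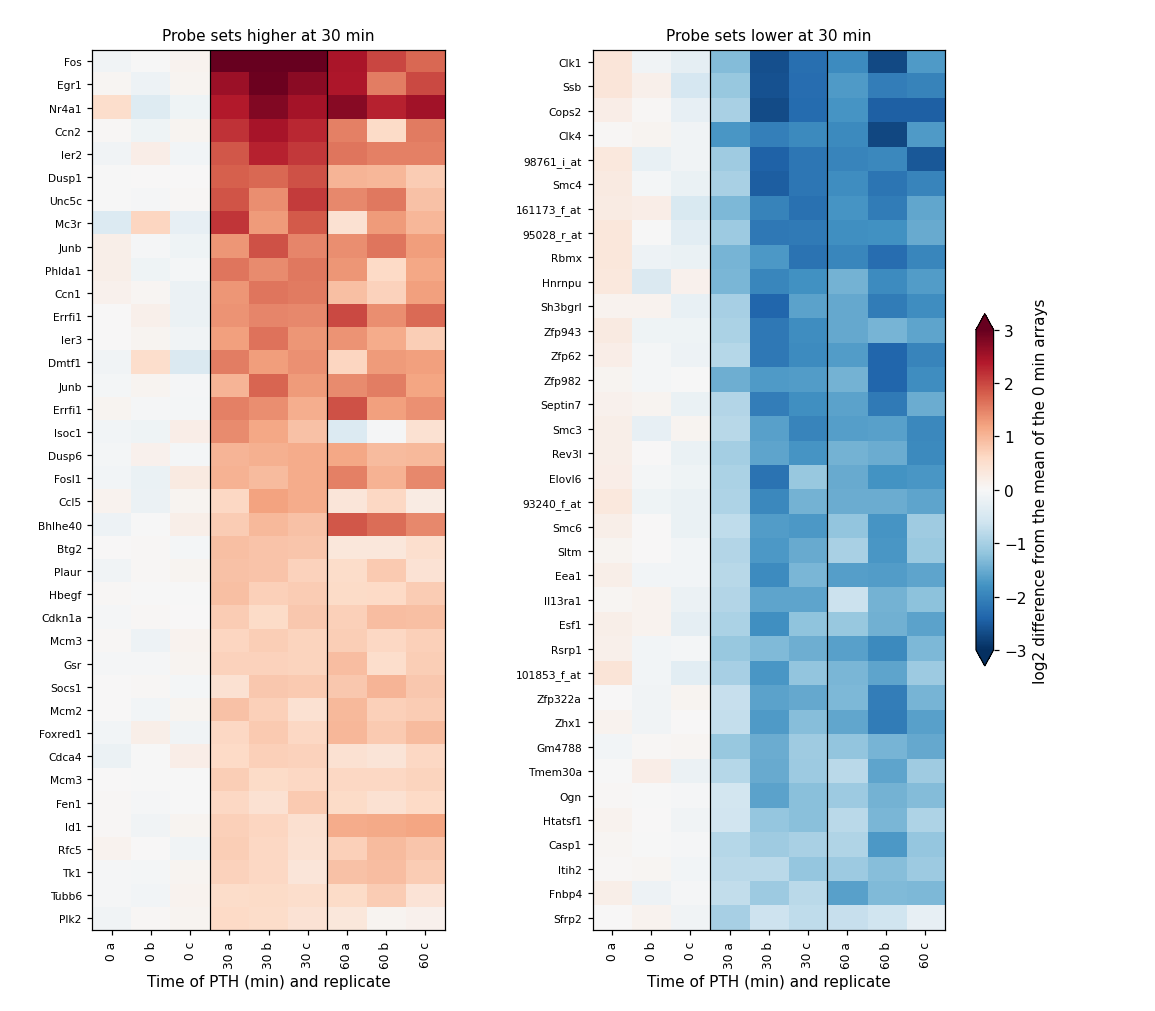
Heat map of the 38 probe sets called higher and the 36 called lower at 30 min (rows) on all 9 arrays (columns: time of PTH in min and replicate), coloured by the log2 difference from the mean of the 0 min arrays, with colours ending at 3 on either side. The rises have much the same depth on all 3 arrays at 30 min, with medians of 0.958, 1.02 and 0.988, while the falls are paler on 30 min replicate a (median -0.946) than on replicates b and c (-1.73 and -1.60).

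The falls were uneven across the 30 min arrays. For the rises, replicate a was the highest of the 3 arrays in 15 of 38 probe sets and the lowest in 17. For the falls, replicate a was the highest, and so the least changed, in 33 of 36. Over all tested probe sets replicate a was the highest in 3211 of 7884. The arrays at 60 min had median deviations of -1.53, -1.78 and -1.58 for the same falls.

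The immediate-early transcription factors, fast targets of kinase cascades, are the best-known group and set the scale. Of 21 tested, 8 rose and 0 fell, with a median of 0.584 against 0.050 over all tested genes. Fos, a subunit of the AP-1 dimer, read 27.5, 30.8 and 34.4 at 0 min and 618, 815 and 662 at 30 min, with a log2 difference of 4.05 ± 0.19 (adjusted p = 3.44e-06). Every 0 min array of Fos was under the level needed for testing, so no fold is given. Without Fos, which entered the test only through later arrays, 7 of 20 rose and the median was 0.554. Egr1, a zinc finger factor, was 6.66-fold higher (log2 2.74 ± 0.20 SE, adjusted p = 9.61e-05), and Nr4a1, an orphan nuclear receptor, was 5.87-fold higher (log2 2.55 ± 0.23 SE, adjusted p = 0.000457). For Nr4a1, 0 min b and c (29.2 and 37.2) were under the level needed for testing, so its fold rests on dim values. Ier2 (2.09), the AP-1 subunits Junb (1.56) and Fosl1 (1.03), the survival gene Ier3 (1.39) and Bhlhe40 (0.87), a repressor in the circadian clock, also rose. The other 13 were not called. Among them Egr2 read 35.6, 48.8 and 73.5 at 0 min and 141, 128 and 114 at 30 min (1.15 ± 0.26, adjusted p = 0.0696), Myc had 0.58 ± 0.16 (adjusted p = 0.112) and Jun 0.59 ± 0.19 (adjusted p = 0.152), while Fosb (-0.12), Fosl2 (-0.05) and Klf6 (-0.02) lay close to 0. The calls of Fosl1 (highest adjusted p 0.128) and Bhlhe40 (0.192) were lost without any 1 of 0 min a and b and 30 min b and c, and Bhlhe40 also without 0 min c. The other 6 kept their calls with any single array left out.

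Some feedback inhibitors, genes that switch off kinase and cytokine signalling, were among the rises. Of 14 tested, 4 rose and 0 fell, with a median of 0.310. Dusp1, a phosphatase that inactivates MAP kinases in the nucleus, read 614, 623 and 632 at 0 min and 2189, 2097 and 2377 at 30 min and was 3.51-fold higher (log2 1.81 ± 0.10 SE, adjusted p = 1.42e-05). Errfi1 (Mig6), which binds and blocks the epidermal growth factor receptor, was measured by 2 probe sets. The brighter read 219, 204 and 201 at 0 min and 618, 570.5 and 458 at 30 min and was 2.53-fold higher (log2 1.34 ± 0.18 SE, adjusted p = 0.00678), and the other was 2.68-fold higher (log2 1.42 ± 0.16 SE, adjusted p = 0.00207). For both genes the lowest 30 min array lay at over 2 times the highest 0 min array. Dusp6, a cytoplasmic phosphatase specific for ERK, read 229.9, 262 and 229.9 at 0 min and 503, 518 and 530.4 at 30 min and was 2.1-fold higher (log2 1.07 ± 0.11 SE, adjusted p = 0.00146). Socs1, an inhibitor of JAK kinases, moved less, at 185, 188 and 174 at 0 min and 253, 329.7 and 321 at 30 min, and was 1.6-fold higher (log2 0.68 ± 0.13 SE, adjusted p = 0.0457). Replicate a at 30 min was the lowest of the 3 for Socs1, still above every 0 min array. Spry4 (0.22, adjusted p = 0.433), Rgs2 (0.36, 0.489) and Socs3 (0.02, 0.965), also members, were not called. Dusp1, Errfi1 and Dusp6 kept their calls with any single array left out. Socs1 lost its call without 0 min a, b or c, 30 min b or c, or 60 min a or c (highest adjusted p 0.209).

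Of 19 tested genes known as CREB targets outside the immediate-early group, 2 rose. Btg2, an antiproliferative factor that speeds the removal of poly(A) tails, read 544, 552 and 517 at 0 min and 1013, 978 and 966 at 30 min and was 1.82-fold higher (log2 0.86 ± 0.10 SE, adjusted p = 0.00239). Its arrays were tightly grouped at each time, and it kept its call with any array left out. Id1, which sequesters basic helix-loop-helix factors and is also a target of BMP signalling, read 243, 217 and 249.5 at 0 min and 398, 378 and 336 at 30 min and was 1.54-fold higher (log2 0.62 ± 0.11 SE, adjusted p = 0.0379). It was the only 1 of 23 BMP and TGF-beta response genes that was called, and its call was lost without 0 min a, b or c, 30 min b or c, or 60 min a or c (highest adjusted p 0.192). The median of the CREB target list was 0.082. Sgk1, a kinase that regulates ion transport (0.45 ± 0.10, adjusted p = 0.076), Nfil3 (0.42 ± 0.12, adjusted p = 0.112) and Ptgs2, the inducible cyclooxygenase (0.71 ± 0.44, adjusted p = 0.411), were not called. Plk2, a kinase of the cell cycle induced by growth signals, was in another list of 52 cyclins, cyclin-dependent kinases and mitotic genes, of which it alone was called by its brightest probe set. Cdkn1a of that list, described below, was called by its dimmer probe set. In limma's test 20 of the 52 had an unadjusted p under 0.05 (13 higher, 7 lower), against 17.9% of all probe sets. Plk2 read 1459, 1624 and 1669 at 0 min and 2387, 2315 and 2123 at 30 min and was 1.43-fold higher (log2 0.52 ± 0.10 SE, adjusted p = 0.0481), the smallest rise called. Its call was lost without any 1 of 0 min a, b and c, 30 min a, b and c and 60 min c (highest adjusted p 0.26), and under 4 other settings given in the closing section.

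CREB binds the CRE in promoters, so the promoters of called genes that hold a full CRE are shown. Of the 35 genes that rose, 23 had a promoter in the RefSeq table of GRCm38.p6, and 27 of the 31 that fell. In the 250 bases before the start, the full element TGACGTCA, read on both strands, was found for 4 of the 23 (17.4%), for 1 of the 27 (3.7%), and for 138 of the 4804 tested genes with a promoter (2.87%). Over all genes of the table the share was 1.77%. The 4 were Dusp1, Errfi1, Btg2 and Plk2, from the 19 with a promoter among 27 risen genes outside the immediate-early group, and only 4 of the 8 risen immediate-early genes (Fos, Nr4a1, Junb and Ier3) had a promoter to search. The gene that fell was Clk4, a kinase described below. In these sequences, written 5′ to 3′ on the strand of the gene, capitals mark the full element and its core TGACG where it lies on that strand.

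Dusp1, chr17:26508473-26508722, minus strand: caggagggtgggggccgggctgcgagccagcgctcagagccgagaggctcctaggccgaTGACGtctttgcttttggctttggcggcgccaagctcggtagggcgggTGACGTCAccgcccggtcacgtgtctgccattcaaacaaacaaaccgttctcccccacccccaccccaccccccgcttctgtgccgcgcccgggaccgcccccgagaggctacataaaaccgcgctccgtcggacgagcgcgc
Errfi1, chr4:150854820-150855069, plus strand: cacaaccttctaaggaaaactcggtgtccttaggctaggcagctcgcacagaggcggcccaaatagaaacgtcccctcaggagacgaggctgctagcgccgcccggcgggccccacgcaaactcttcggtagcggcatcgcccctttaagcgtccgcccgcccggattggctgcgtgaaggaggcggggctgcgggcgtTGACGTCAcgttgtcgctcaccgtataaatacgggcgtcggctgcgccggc
Btg2, chr1:134079156-134079405, minus strand: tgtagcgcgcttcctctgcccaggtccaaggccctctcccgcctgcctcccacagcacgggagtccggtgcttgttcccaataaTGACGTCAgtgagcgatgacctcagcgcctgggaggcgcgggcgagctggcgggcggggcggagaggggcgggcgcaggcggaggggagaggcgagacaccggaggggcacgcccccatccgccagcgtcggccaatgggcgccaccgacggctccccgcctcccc
Plk2, chr13:110394794-110395043, plus strand: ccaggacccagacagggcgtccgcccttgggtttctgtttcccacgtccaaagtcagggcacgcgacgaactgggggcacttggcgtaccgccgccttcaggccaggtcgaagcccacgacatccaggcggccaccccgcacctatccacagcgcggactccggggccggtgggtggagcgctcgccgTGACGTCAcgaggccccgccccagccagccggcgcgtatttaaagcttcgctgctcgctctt
Clk4, chr11:51262864-51263113, plus strand: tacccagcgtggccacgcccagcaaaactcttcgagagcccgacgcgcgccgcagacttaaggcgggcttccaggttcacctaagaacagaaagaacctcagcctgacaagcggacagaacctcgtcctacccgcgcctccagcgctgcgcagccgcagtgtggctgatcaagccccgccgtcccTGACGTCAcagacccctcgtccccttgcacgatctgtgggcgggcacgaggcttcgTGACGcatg

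The full element begins 143 bases before the start in Dusp1, 51 in Errfi1, 166 in Btg2, 62 in Plk2 and 65 in Clk4. Errfi1 has a further window in the table without it. The core TGACG, which the full element contains on both strands, was found for 13 of 23 genes that rose (56.5%), 6 of 27 that fell (22.2%) and 31.2% of the tested genes. The median GC content was 59.6% for both sets and 60.0% for the tested genes. The TATA box TATAAA was found for 17.4% of the risen, 3.7% of the fallen and 8.87% of the tested genes, and the AP-1 site TGANTCA for 8.7%, 7.41% and 5.93%. The CArG box, to which serum response factor binds, was found for 0 of both sets and 1.56% of the tested genes. Risen genes without a promoter in the table, Egr1, Ier2 and Ccn2 among them, and bases further upstream could not be searched. These shares are a description of few promoters and were not tested, and a match of letters is not a bound site.

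The machinery that carries the PTH signal, and the genes best known as its targets in osteoblasts, showed no called change by their brightest probe sets. Of 25 tested genes of the receptor, cyclic AMP and CREB machinery, 0 were called in limma's test and 3 had an unadjusted p under 0.05, the median was -0.032 and 10 lay above 0. Those 3 were split, 2 higher and 1 lower, and the ends of the list were Adcy3, an adenylate cyclase (1.13 ± 0.37, adjusted p = 0.158), and Akap8, an anchor of protein kinase A (-0.79 ± 0.47, adjusted p = 0.399). Adcy3 read 14, 13 and 25.6 at 0 min and 35.2, 46.6 and 80.5 at 30 min. All its 0 min arrays were under the level needed for testing, so it was tested only through later arrays, on which it is higher. Without Adcy3 the median of the other 24 was -0.035. Gnas, the stimulatory G protein subunit, had -0.05 ± 0.12 (adjusted p = 0.838), Creb1 -0.14 ± 0.21 (adjusted p = 0.737), Prkaca, the catalytic subunit of protein kinase A, 0.05 ± 0.15 (adjusted p = 0.891), and the phosphodiesterase Pde4b -0.25 ± 0.45 (adjusted p = 0.788). Crem, another CRE-binding factor, was too dim to test. Of 18 tested PTH target genes outside the immediate-early group 0 were called by their brightest probe set in limma's test and 4 had an unadjusted p under 0.05 (1 higher, 3 lower), with a median of -0.004 and 9 above 0. Of the 18, 1 passed the filter through its 0 min arrays alone, on which it is high. Without that gene the median of the other 17 was 0.017 and 8 lay below 0. Tnfrsf11b (osteoprotegerin), the decoy receptor for RANKL, had -0.25 ± 0.25 (adjusted p = 0.605), the collagenase Mmp13 -0.33 ± 0.24 (adjusted p = 0.482) and the chemokine Ccl2 -0.03 ± 0.13 (adjusted p = 0.934). Tnfsf11, RANKL itself, was too dim to test. Cdkn1a (p21), an inhibitor of cyclin-dependent kinases in the same list, gave 2 answers: its dimmer probe set read 161, 171 and 167 at 0 min and 289, 252 and 299 at 30 min and was 1.64-fold higher (log2 0.71 ± 0.12 SE, adjusted p = 0.0287), while the brighter had 0.39 ± 0.13 (adjusted p = 0.159). The call of the dimmer was lost without 0 min a, b or c, 30 min b or c, or 60 min c (highest adjusted p 0.192).

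Among secreted ligands, 4 of 28 tested rose and 0 fell, and the other members were spread around 0 (median -0.016). Ccn2 (connective tissue growth factor), a matricellular protein, had the largest rise outside the immediate-early transcription factors. It read 140.1, 124 and 146 at 0 min and 659, 817 and 693 at 30 min and was 4.94-fold higher (log2 2.30 ± 0.23 SE, adjusted p = 0.00119). Ccn1 (Cyr61), of the same family, read 305, 287 and 244 at 0 min and 707, 871 and 837 at 30 min and was 2.81-fold higher (log2 1.49 ± 0.16 SE, adjusted p = 0.00146). In both, every 30 min array was at over 2 times every 0 min array, and the other family members Ccn3 (-0.40), Ccn4 (-0.07) and Ccn5 (-0.13) were not called. Hbegf, a ligand of the epidermal growth factor receptor that Errfi1 blocks, read 148, 143 and 144 at 0 min and 281, 246 and 255 at 30 min and was 1.74-fold higher (log2 0.80 ± 0.12 SE, adjusted p = 0.0142). Ccl5, a chemokine, read 162, 132 and 159 at 0 min and 238, 363 and 337 at 30 min and was 1.97-fold higher (log2 0.98 ± 0.18 SE, adjusted p = 0.036), the only 1 of 21 NF-kappaB pathway and response genes that was called. Replicate a was the lowest of the 3 for Ccl5 and the highest for Hbegf, and neither gene overlapped the 0 min arrays. The chemokine Cxcl1 had 0.47 ± 0.10 (adjusted p = 0.0535) and endothelin 1, Edn1, 0.82 ± 0.27 (adjusted p = 0.155). Ccn2 and Ccn1 kept their calls with any array left out. Hbegf lost its call without 0 min a, b or c or 30 min c (highest adjusted p 0.0888), and Ccl5 without 0 min a, b or c, 30 min b or c, or 60 min c (0.184).

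Of 33 tested receptors 3 rose and 0 fell, although 24 of the 33 lay below 0 and the median was -0.148. Unc5c, a receptor of the axon guidance cue netrin, read 11.7, 11.5 and 12.5 at 0 min and 75.8, 50.3 and 90 at 30 min, with a log2 difference of 1.79 ± 0.28 (adjusted p = 0.0193). Its 0 min arrays lie far below the intensity needed for testing and it entered the test only through the 30 and 60 min arrays, so no fold is given and 2 called rises stand among the other 32 receptors. Mc3r, a melanocortin receptor that itself raises cyclic AMP, read 18.7, 51.7 and 22.5 at 0 min and 166, 86.6 and 134 at 30 min and was 3.38-fold higher (log2 1.76 ± 0.33 SE, adjusted p = 0.0424). Its arrays were widely spread at both times. Since 0 min a and c were under the level needed for testing, its fold rests on dim values. The call of Mc3r was also lost under 3 other settings given in the closing section. Plaur, the receptor of urokinase at the cell surface, read 169, 188 and 196 at 0 min and 347, 343 and 306 at 30 min and was 1.75-fold higher (log2 0.81 ± 0.13 SE, adjusted p = 0.0201), also the only 1 of 22 matrix proteases and inhibitors that was called. The cytokine receptor Osmr had -0.58 ± 0.15 (adjusted p = 0.0954) and Fgfr3 0.85 ± 0.21 (adjusted p = 0.0826). The 3 calls were lost without 0 min a or c, or 30 min c; Plaur and Unc5c also without 0 min b, Plaur and Mc3r without 30 min b, and Mc3r without 30 min a or 60 min c. Their highest adjusted p values were 0.116 for Unc5c, 0.209 for Mc3r and 0.154 for Plaur.

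**Figure D2:**
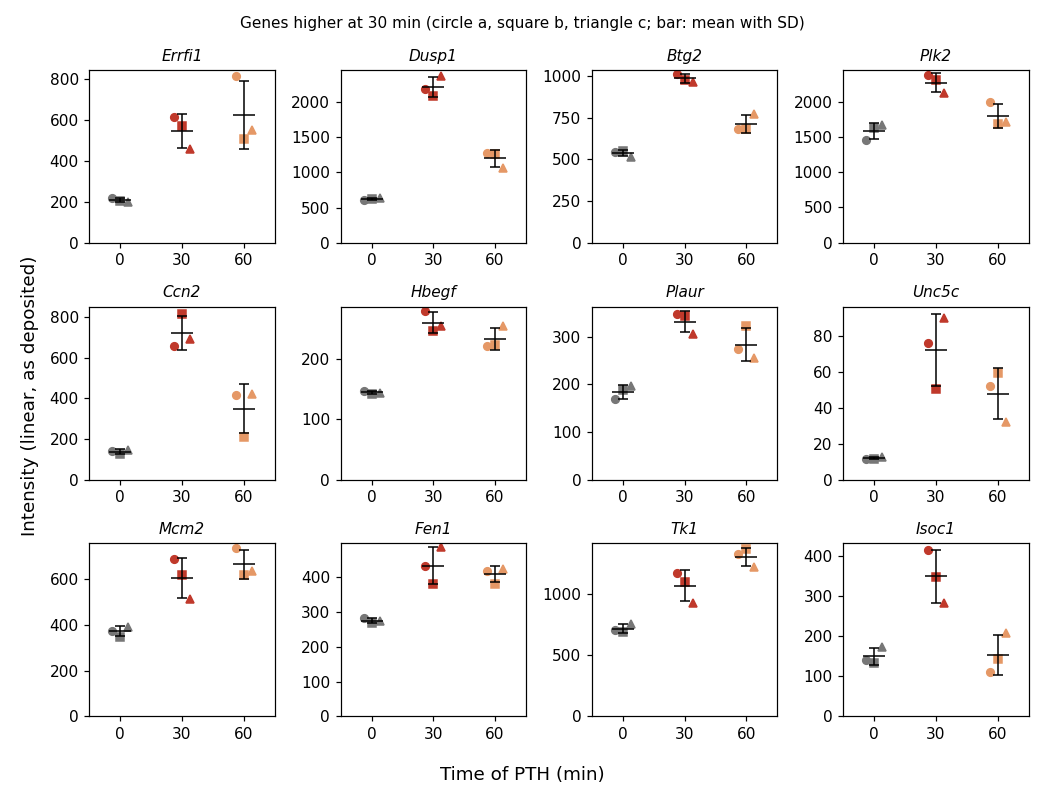
Deposited linear intensity (vertical axes, from 0) of 12 genes called higher at 30 min, against the time of PTH in min. Symbols are single arrays (circle a, square b, triangle c) and bars the mean with its SD over 3 arrays; in each gene the 3 arrays at 30 min lie above the 3 at 0 min, and Isoc1 lies near its 0 min level at 60 min.

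Genes of DNA replication formed the list with the most called rises after the immediate-early factors. Of 37 tested, 5 rose and 0 fell, 31 lay above 0, the median was 0.404, and for 21 the 30 min arrays all lay above the 0 min arrays, against 15.3% of all probe sets. Mcm3, a subunit of the replicative helicase, was called by both of its probe sets. The brighter read 727, 715 and 710.2 at 0 min and 1210.2, 1082 and 1114 at 30 min and was 1.57-fold higher (log2 0.65 ± 0.09 SE, adjusted p = 0.0102). The other read 337, 294 and 349 at 0 min and 519, 551 and 525 at 30 min and was 1.61-fold higher (log2 0.69 ± 0.11 SE, adjusted p = 0.0193). The 2 probe sets gave like folds, with no overlap between the times. Mcm2, of the same helicase, read 375, 348 and 393 at 0 min and 688, 616 and 512 at 30 min and was 1.6-fold higher (log2 0.68 ± 0.13 SE, adjusted p = 0.0457). Fen1, the nuclease that trims Okazaki fragments, read 282, 267 and 275 at 0 min and 432, 379.5 and 486 at 30 min and was 1.54-fold higher (log2 0.63 ± 0.12 SE, adjusted p = 0.0437). Rfc5, a subunit of the clamp loader, read 343, 319 and 294 at 0 min and 538, 497 and 443 at 30 min and was 1.52-fold higher (log2 0.61 ± 0.12 SE, adjusted p = 0.0479). For Mcm2 and Rfc5 replicate c was the lowest of the 30 min arrays, for Fen1 the highest. Tk1, the thymidine kinase that feeds the nucleotide pool, read 702, 689 and 755 at 0 min and 1169.8, 1097 and 926 at 30 min and was 1.47-fold higher (log2 0.56 ± 0.11 SE, adjusted p = 0.0482). Mcm5 (0.55, adjusted p = 0.076), Mcm7 (0.47, 0.0826) and the helicase activator Cdc45 (0.70, 0.0678) were above 0 with no call, whereas Mcm4 (0.06), the sliding clamp Pcna (0.22) and Prim1 (0.03) lay closer to 0, and the origin factor Orc4 (-1.17, 0.102) and the clamp loader's Rfc1 (-0.76, 0.26) below it.

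These calls are near the threshold. The brighter probe set of Mcm3 lost its call without 0 min a, b or c or 30 min c (highest adjusted p 0.0783), and the other also without 30 min b (0.114). Mcm2 (0.213), Fen1 (0.206), Rfc5 (0.198) and Tk1 (0.26) each lost theirs without 0 min a, b or c, 30 min b or c, or 60 min a or c. The median of the list was 0.351 without 30 min replicate a and stayed between 0.381 and 0.415 under the 3 other normalizations. Of the 5 genes, Mcm2, Rfc5 and Tk1 also lost their calls with a constant of 1, without the filter, without the variance trend and after cyclic loess, and Fen1 without the filter or the trend.

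The remaining rises had no common list. Phlda1, a gene of the stress and apoptosis list, read 124, 99.2 and 104 at 0 min and 353, 312 and 346 at 30 min, was 2.89-fold higher (log2 1.53 ± 0.18 SE, adjusted p = 0.00311) and kept its call with any array left out. It was the only 1 of 28 in that list called by its brightest probe set. Dmtf1, a Myb-like factor that binds D cyclins, read 53.2, 89.7 and 40 at 0 min and 192, 155 and 169 at 30 min and was 2.62-fold higher (log2 1.39 ± 0.25 SE, adjusted p = 0.0379). Isoc1 read 140.5, 134 and 173 at 0 min and 415, 347 and 283 at 30 min and was 2.23-fold higher (log2 1.15 ± 0.22 SE, adjusted p = 0.0424). Neither overlapped the 0 min arrays, although Dmtf1 varied more among those than most genes did. Its 0 min c array was also under the level needed for testing. Gsr, the reductase that regenerates glutathione, read 171, 172 and 187 at 0 min and 292, 290.2 and 288 at 30 min and was 1.6-fold higher (log2 0.68 ± 0.13 SE, adjusted p = 0.0411). Foxred1 (0.67), an assembly factor of respiratory complex I, Cdca4 (0.66), a nuclear protein linked to cell division, and the tubulin gene Tubb6 (0.55) rose by less. The name of the Tubb6 probe set ends in _f, the array maker's mark for probes shared by a family of sequences, so other tubulins may add to it. The calls of the 6 genes of this group other than Phlda1 were lost without 0 min a or c or 30 min b or c, and all except Dmtf1 also without 0 min b. Further, Dmtf1 and Gsr lost theirs without 60 min c, and Foxred1, Cdca4 and Tubb6 without 60 min a or c. Their highest adjusted p values ran from 0.206 (Dmtf1) and 0.206 (Isoc1) through 0.209 (Gsr) and 0.231 (Tubb6) to 0.26 (Foxred1) and 0.26 (Cdca4).

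Among the falls were genes of the machinery that splices and binds RNA in the nucleus. Of 31 Clk kinases and SR splicing factors tested, 2 fell and 0 rose, 22 lay below 0 and the median was -0.265. Clk1 and Clk4 are kinases that phosphorylate SR proteins, and their own messages are known to be spliced in a regulated way with retained introns. Clk1 read 1492, 1091 and 971 at 0 min and 467, 179 and 234 at 30 min and was 4.17-fold lower (log2 -2.06 ± 0.34 SE, adjusted p = 0.0254), the largest fall called. Clk4 read 195, 203 and 176 at 0 min and 48.2, 37.4 and 42.1 at 30 min and was 3.74-fold lower (log2 -1.90 ± 0.25 SE, adjusted p = 0.00678). The 3 arrays at 30 min agreed closely for Clk4, but replicates b and c were under the level needed for testing, so its fold rests on dim values. For Clk1 replicate a stood above b and c. A second, dimmer probe set of Clk4 had -1.10 ± 0.36 (adjusted p = 0.155). The related kinases Clk2, at -0.34 ± 0.14 (adjusted p = 0.23), and Clk3, at 0.00 ± 0.14 (adjusted p = 0.988), were not called. Of the other members, Luc7l3 (-1.17, adjusted p = 0.0992), the splicing factor subunit Sf3b1 (-0.99, 0.0787) and Son (-0.69, 0.0596) were lower with no call, and Srsf1 (-0.03) and Srsf2 (-0.01) lay near 0. Rsrp1, a protein rich in arginine and serine that is in no list, read 986, 838 and 846 at 0 min and 398, 347 and 315 at 30 min and was 2.47-fold lower (log2 -1.31 ± 0.16 SE, adjusted p = 0.00311). It was the only fall that kept its call with any single array left out. Clk4 lost its call only without 0 min a or b (highest adjusted p 0.06), and Clk1 without 0 min a, b or c or 30 min b or c (0.155).

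Of 41 tested hnRNP and other nuclear RNA-binding proteins 2 fell by their brightest probe sets and 0 rose, with 33 below 0 and a median of -0.462. Without Hnrnpu, which passed the filter through its 0 min arrays alone, 1 of 40 fell, 32 lay below 0 and the median was -0.421. For 24 of the 41 the 30 min arrays all lay below the 0 min arrays, against 15.3% of all probe sets. Ssb, the La protein that binds the ends of RNA polymerase III transcripts, read 204, 175 and 107 at 0 min and 64.6, 15.6 and 22.9 at 30 min and was 4.05-fold lower (log2 -2.02 ± 0.37 SE, adjusted p = 0.0378). Hnrnpu, a scaffold protein of the nucleus, read 140.2, 78.8 and 123 at 0 min and 35.4, 20 and 22.9 at 30 min, with a log2 difference of -1.72 ± 0.27 (adjusted p = 0.0193). At 30 min Ssb lay under the level needed for testing on replicates b and c, so its fold rests on dim values, and Hnrnpu on all 3, so it has no fold. Rbmx, an hnRNP encoded on the X chromosome, gave 2 answers: the dimmer probe set, which also passed through the 0 min arrays alone, read 121, 82.6 and 79.2 at 0 min and 27.7, 20 and 10.8 at 30 min (-1.77 ± 0.30, adjusted p = 0.0256), while the brighter read 242, 203 and 191 at 0 min and 209, 218 and 176 at 30 min with -0.07 ± 0.14 (adjusted p = 0.797). Matr3 (-1.15, adjusted p = 0.0696), Rbm39 (-1.28, 0.0774), Rbm25 (-1.21, 0.0826) and Hnrnpa1 (-0.77, 0.154) were lower with no call, and Hnrnpd (0.21) and Ilf2 (0.32) were above 0. Other nuclear proteins that fell were Htatsf1, a factor of transcription and splicing (-0.996 ± 0.20, adjusted p = 0.0479), Sltm, a modulator of transcription with an RNA-binding domain (-1.37 ± 0.25, adjusted p = 0.037), Fnbp4, which binds formin (-0.88 ± 0.17, adjusted p = 0.0476), and Esf1, a nucleolar factor of ribosomal RNA processing (-1.33 ± 0.24, adjusted p = 0.0379). The Esf1 probe set also carries the _f mark. The calls of Ssb, Htatsf1, Sltm, Fnbp4 and Esf1 were lost without 0 min a, b or c, 30 min b or c, or 60 min c, and that of Htatsf1 also without 60 min a. Those of Hnrnpu and Rbmx were lost without 30 min b or c, and both probe sets drop below the filter without any 0 min array. The highest adjusted p was 0.206 for Ssb, 0.103 for Hnrnpu, 0.11 for Rbmx, 0.255 for Htatsf1, 0.203 for Sltm, 0.26 for Fnbp4 and 0.206 for Esf1.

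**Figure D3:**
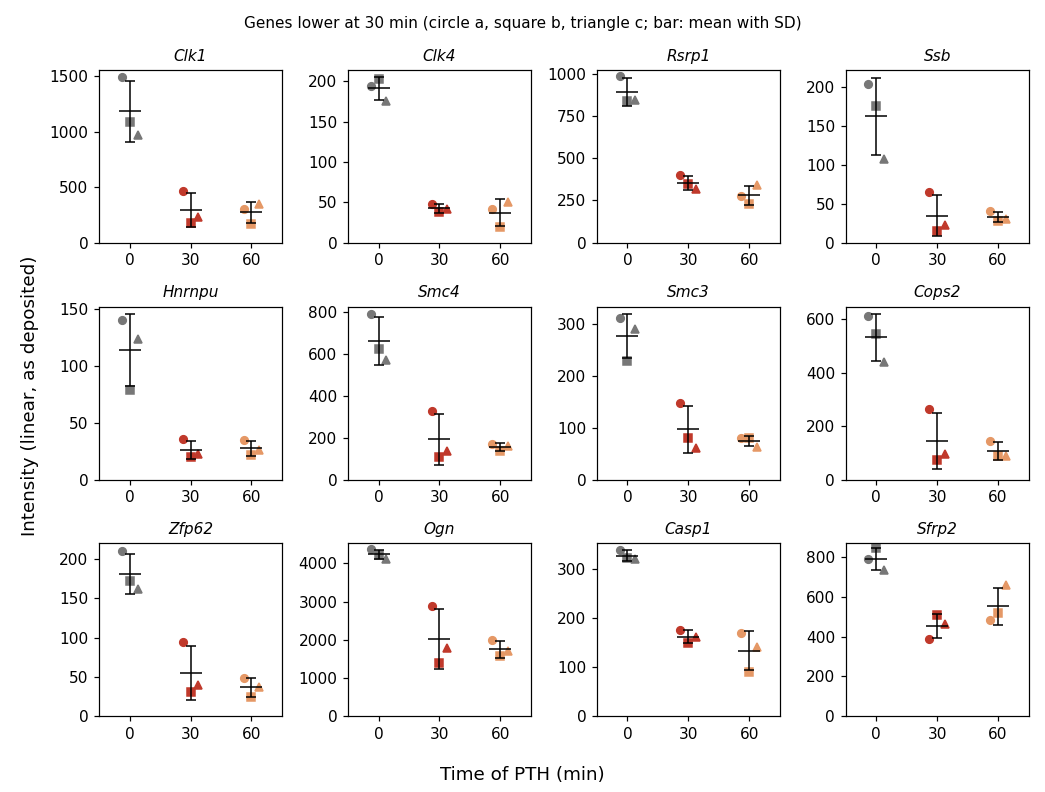
Deposited linear intensity (vertical axes, from 0) of 12 genes called lower at 30 min, against the time of PTH in min. Symbols are single arrays (circle a, square b, triangle c) and bars the mean with its SD over 3 arrays; in most of the genes replicate a is the highest of the 30 min arrays, while in Clk4, Casp1 and Rsrp1 the 3 arrays lie close together and in Sfrp2 replicate a is the lowest.

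The SMC proteins, ring-shaped ATPases that hold and fold chromosomes, had the lowest median of the lists with at least 10 genes tested. Of 10 SMC genes and partners, 3 fell and 0 rose, 9 lay below 0 and the median was -1.162, or -1.57 without 30 min replicate a. Smc4, of condensin, read 789, 623 and 569 at 0 min and 329, 107 and 136 at 30 min and was 3.66-fold lower (log2 -1.87 ± 0.32 SE, adjusted p = 0.0276). Smc3, of cohesin, read 313, 229 and 291 at 0 min and 149, 81.3 and 61.5 at 30 min and was 2.79-fold lower (log2 -1.48 ± 0.26 SE, adjusted p = 0.0302). Smc6, of the SMC5/6 repair complex, read 229, 202 and 174 at 0 min and 114, 54.9 and 52.8 at 30 min and was 2.6-fold lower (log2 -1.38 ± 0.28 SE, adjusted p = 0.0481). In all 3 genes replicate a was the highest 30 min array and still lay below every 0 min array. All 3 lost their calls without the variance trend, Smc3 and Smc6 also without the filter, and Smc6 with a constant of 1. The cohesin subunit Stag2 (-1.33, adjusted p = 0.0774), the cohesin loader Nipbl (-1.24, 0.0774) and Smc2 (-1.08, 0.207) were lower with no call, while the cohesin clasp Rad21 had -0.20 and the condensin subunit Ncaph 0.08. Rev3l, the catalytic subunit of DNA polymerase zeta, read 577, 514 and 438 at 0 min and 244, 163 and 141 at 30 min and was 2.73-fold lower (log2 -1.45 ± 0.21 SE, adjusted p = 0.0104). Of 43 chromatin remodellers and modifiers 0 were called in limma's test and 10 had an unadjusted p under 0.05 (1 higher, 9 lower). Of the 43, 32 lay below 0, the median was -0.135, and the 2 brightest were Chd4 (-0.17, 0.388) and Hmgn1 (0.01, 0.95). Smc4 and Smc3 lost their calls without 0 min a, b or c, 30 min b or c, or 60 min c, Smc6 also without 60 min a, and Rev3l without 0 min a or b or 30 min b or c. The highest adjusted p was 0.17 for Smc4, 0.192 for Smc3, 0.26 for Smc6 and 0.0783 for Rev3l.

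Of 63 tested Zfp zinc finger genes, a large family of mostly repressive DNA-binding proteins, 4 fell and 0 rose, with 40 below 0 and a median of -0.082. Of the 63, 6 passed the filter through the 0 min arrays alone, Zfp943 and Zfp982 among them; of the other 57, 2 fell, 34 lay below 0 and the median was -0.07. Zfp62 read 210.3, 171 and 162 at 0 min and 94.3, 31.4 and 40.2 at 30 min and was 3.1-fold lower (log2 -1.63 ± 0.32 SE, adjusted p = 0.0457). Zfp943 read 112, 81.9 and 82.9 at 0 min and 41.5, 11.5 and 16.7 at 30 min (-1.65 ± 0.31, adjusted p = 0.0424). Zfp322a read 423, 384 and 445 at 0 min and 254, 129 and 137 at 30 min and was 2.42-fold lower (log2 -1.27 ± 0.26 SE, adjusted p = 0.0481). In each, replicate a at 30 min kept more signal than b and c. For Zfp62, 30 min b and c were under the level needed for testing, so its fold rests on dim values. Zfp982 was dim throughout, at 70.2, 61.9 and 64.6 at 0 min and 16.2, 11.9 and 12.5 at 30 min (-1.61 ± 0.32, adjusted p = 0.0476). Its probe set has the _f mark, and since near-identical copies of such genes exist, the signal may be shared. The repressor Zhx1, with zinc fingers and homeoboxes, read 622, 540.4 and 580.04 at 0 min and 348, 169 and 233 at 30 min and was 2.35-fold lower (log2 -1.23 ± 0.23 SE, adjusted p = 0.0411), but a dimmer probe set of it had 0.41 ± 0.29 (adjusted p = 0.474). The calls of Zfp62, Zfp322a and Zhx1 were lost without 0 min a, b or c, 30 min b or c, or 60 min c, that of Zfp322a also without 60 min a. Those of Zfp943 and Zfp982 were lost without 30 min b or c or 60 min c, that of Zfp943 also without 60 min a, and both drop below the filter without any 0 min array. The highest adjusted p was 0.255 for Zfp62, 0.162 for Zfp943, 0.231 for Zfp322a, 0.162 for Zfp982 and 0.206 for Zhx1.

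Another group of falls was of mixed kinds. Cops2, a subunit of the COP9 signalosome that controls cullin ubiquitin ligases, read 611, 544 and 439 at 0 min and 262, 71.6 and 96.7 at 30 min and was 3.98-fold lower (log2 -1.99 ± 0.37 SE, adjusted p = 0.0411), the only 1 of 51 genes of that list that was called. A second probe set had -1.29 ± 0.29 (adjusted p = 0.072), and the other signalosome subunits Cops3 (-0.29), Cops4 (0.31) and Cops5 (-0.17) were not called. Septin7, a filament protein of the cell cortex, read 2458, 2372 and 1952 at 0 min and 1213, 526 and 625 at 30 min and was 3.02-fold lower (log2 -1.60 ± 0.27 SE, adjusted p = 0.0289). Sh3bgrl, a small protein of the thioredoxin fold, read 1857, 1848 and 1481 at 0 min and 862, 324 and 554 at 30 min and was 3.15-fold lower (log2 -1.66 ± 0.29 SE, adjusted p = 0.0289). These were bright messages, and replicate a stood clearly above b and c at 30 min in each. Elovl6, an elongase of fatty acids, had -1.43 ± 0.28 (adjusted p = 0.0437) and, by a second probe set, -1.23 ± 0.35 (adjusted p = 0.124). Eea1, a tether of early endosomes, had -1.36 ± 0.22 (adjusted p = 0.0248). Tmem30a, the partner subunit of lipid flippases, had -1.15 ± 0.22 (adjusted p = 0.0437), and its brightest probe set -0.83 ± 0.23 (adjusted p = 0.118). All 6 lost their calls without 0 min a, b or c or 30 min c, all except Eea1 and Elovl6 without 30 min b, all except Eea1 and Septin7 without 60 min c, and Elovl6 without 60 min a. The highest adjusted p was 0.206 for Cops2, 0.17 for Septin7, 0.17 for Sh3bgrl, 0.231 for Elovl6, 0.161 for Eea1 and 0.206 for Tmem30a.

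Among secreted and immune genes that fell, Ogn is the one tied to bone. Ogn (osteoglycin), a small leucine-rich proteoglycan of the matrix, read 4366, 4223 and 4110.2 at 0 min and 2890.3, 1387 and 1777 at 30 min and was 2.19-fold lower (log2 -1.13 ± 0.21 SE, adjusted p = 0.0424). The 0 min arrays were close together, and the 30 min arrays were all lower but spread out, with replicate a the highest. Its other probe set overlapped between the times (-0.38 ± 0.25, adjusted p = 0.453). It was the only 1 of 34 bone matrix and osteoblast differentiation genes called, a list with a median of -0.072. Its near relative Omd (osteomodulin) had -1.44 ± 0.38 (adjusted p = 0.101) and periostin, Postn, -0.98 ± 0.26 (adjusted p = 0.101). Sfrp2, a secreted antagonist of Wnt, read 789, 844 and 732 at 0 min and 389, 508 and 463 at 30 min and was 1.73-fold lower (log2 -0.79 ± 0.14 SE, adjusted p = 0.0379), the only 1 of 23 Wnt pathway genes called and the smallest fall called. Over all tested genes, 1.061% were called. Casp1, the caspase that matures interleukin 1 beta, read 340.1, 322 and 320.02 at 0 min and 177, 149.5 and 161 at 30 min and was 1.95-fold lower (log2 -0.96 ± 0.19 SE, adjusted p = 0.0476). In both, all 30 min arrays lay well below the lowest 0 min array. The receptor subunit Il13ra1 (-1.35 ± 0.25, adjusted p = 0.0411), Itih2, a heavy chain bound to hyaluronan (-0.92 ± 0.17, adjusted p = 0.0379), and Gm4788 (-1.23 ± 0.21, adjusted p = 0.0265), whose probe set has the _f mark and passed the filter through the 0 min arrays alone, also fell. All except Gm4788 lost their calls without 0 min a, b or c or 30 min b or c, and all except Sfrp2 and Gm4788 without 60 min c. Gm4788 lost its call without 30 min b or c and drops below the filter without any 0 min array. The highest adjusted p was 0.206 for Ogn, 0.206 for Sfrp2, 0.247 for Casp1, 0.207 for Il13ra1, 0.206 for Itih2 and 0.093 for Gm4788.

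Other probe sets of the same genes give a partial check on these calls. Among the rises, Errfi1, Junb and Mcm3 were each called by both of their probe sets. The other tested probe sets of Cdkn1a (0.39) and Rfc5 (0.48) were above 0 with 0 of 2 called. For the falls, 7 genes had 8 other probe sets: 0 were called, 7 had the same sign, with a median of -0.708, and 4 had all 30 min arrays below all 0 min arrays. The other probe sets of Rbmx (-0.07) and Zhx1 (0.41) lay near or above 0. Where along the message each probe set lies is not used here. Probe sets of 1 gene may share sequence, so their agreement is not shown to be independent.

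**Figure D4:**
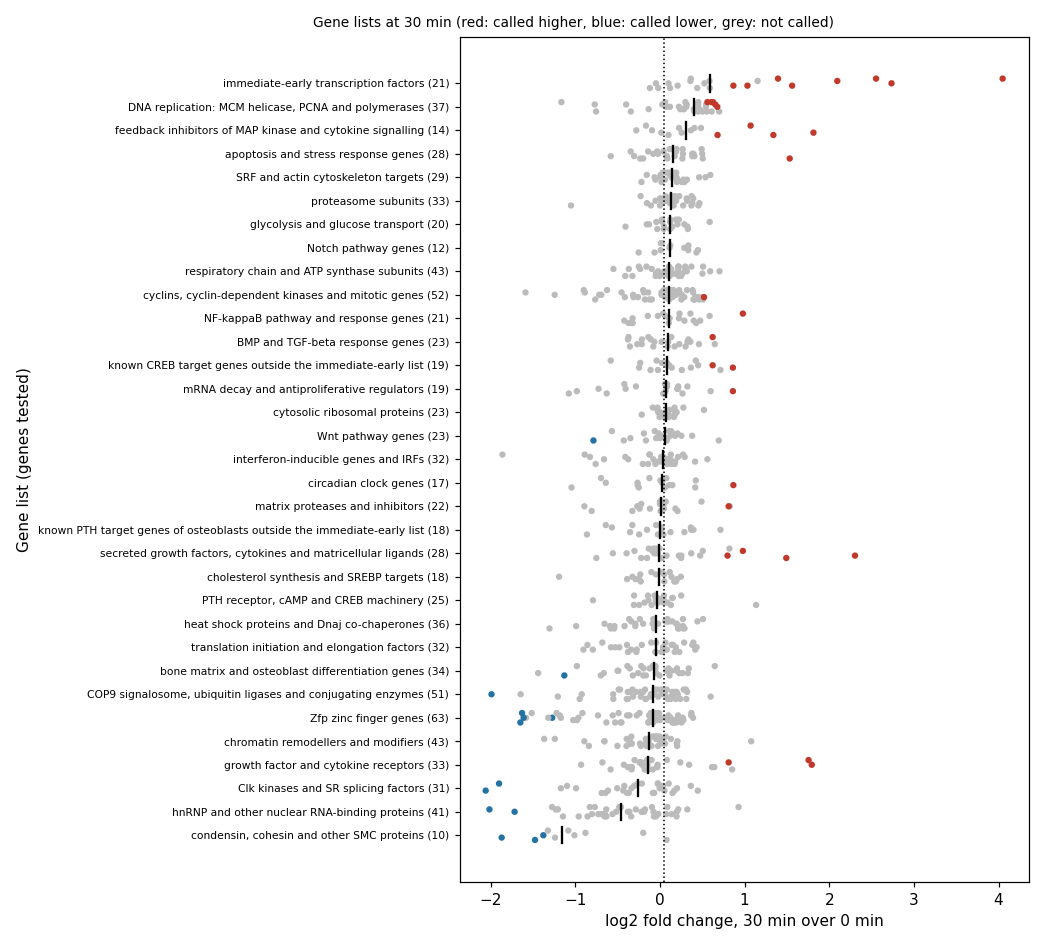
Log2 fold change at 30 min over 0 min (horizontal axis) of every tested gene in the lists with at least 10 tested genes (vertical axis, number tested in brackets), 1 probe set per gene. Red points are called higher, blue called lower, grey not called; bars are list medians and the dotted line is the median of all 5936 tested genes (0.050). The SMC, hnRNP and Clk lists have the lowest medians (-1.162, -0.462 and -0.265) and the immediate-early and DNA replication lists the highest (0.584 and 0.404).

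A further 10 lists had 0 calls in limma's test, where 0.939% of all probe sets were called and 17.9% had an unadjusted p under 0.05, so a list of this size with 0 calls is near the background. Counts at an unadjusted p under 0.05 are given as higher and lower. Of 29 tested targets of serum response factor and actin signalling, 25 lay above 0, with a median of 0.141 and a count of 3 higher and 0 lower. Fhl2 (0.54, adjusted p = 0.0573) and smooth muscle actin Actg2 (0.59, 0.0573) came closest, and the bright members Lmna (0.03) and Actg1 (0.00) lay near 0. Of 33 proteasome subunits 26 lay above 0, 9 were higher and 1 lower, with a median of 0.133, Psmb4 at 0.38 and Psma2 at 0.13. The other 8 such lists are given with their median, their 2 brightest genes and that count. The 43 respiratory chain genes had a median of 0.111 (Ndufv1 0.32, Cox6a1 0.10, 5 higher and 0 lower) and the 20 of glycolysis 0.119 (Hk1 0.12, Pkm -0.03, 2 and 0). The 12 genes of Notch signalling had 0.116 (Rbpj -0.25, Rfng 0.33, 2 and 0) and the 23 cytosolic ribosomal proteins 0.065 (Rpl7 0.00, Rps4x 0.05, 1 and 0). The 32 interferon-inducible genes had a median of 0.029 (B2m 0.18, Ifitm3 0.21, 0 higher and 7 lower). In that list all 30 min arrays lay above all 0 min arrays for 1 gene and below for 9, against 15.3% of all probe sets each way. The lowest of the 32 was Ifi202b, an interferon-inducible DNA-binding protein, which read 1082, 937 and 870.1 at 0 min and 477, 131 and 261 at 30 min (-1.86 ± 0.39, adjusted p = 0.0558). The 32 translation factors had -0.050 (Eif3c 0.08, Eef2 0.06, 2 and 6), the 36 heat shock genes -0.047 (Hspd1 -0.09, Cct5 0.09, 4 and 6) and the 18 cholesterol synthesis genes -0.017 (Scd1 0.01, Fdps 0.19, 0 and 2). Of 17 clock genes only Bhlhe40 was called, and of 19 genes of mRNA decay and antiproliferation only Btg2. At an unadjusted p under 0.05 in limma's test, 2 clock genes were higher and 3 lower, the called gene included. In the mRNA decay list 10 of the 19 passed that threshold, 4 higher and 6 lower, Btg2 included. With cyclic loess in place of the deposited scale, the medians of the clock (-0.004), interferon (-0.003) and protease (-0.028) lists turn from above to below 0, and that of the PTH target list is 0.008 when arrays are scaled to a common 75th percentile.

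The same members at 60 min are given beside those at 30 min, with the caution that both comparisons use the same 0 min arrays, so agreement between them is partly built in. At 60 min, 1031 of 7884 probe sets (13.1%) were called against 0 min. Of the 38 rises, 34 were called higher at 60 min too, and the exceptions were Mc3r, Isoc1, Ccl5 and Plk2. All 36 falls were called lower at 60 min. The median over the rises was 1.01 at 30 min and 0.92 at 60 min, and over the falls -1.43 and -1.64. Tested directly against 30 min, 2 probe sets (0.0254%) differed at 60 min, those of Fos and Dusp1. Dusp1 read 1273, 1264 and 1062 at 60 min, between its 0 and 30 min levels with no overlap. Isoc1, at 109, 144 and 207, had a log2 difference from 0 min of 0.00, and Btg2, at 679, 685 and 771, of 0.40 after 0.86. In the other direction, Bhlhe40 read 359, 314 and 263 (1.67 after 0.87) and Id1 523, 536 and 551 (1.15 after 0.62). The difference between 30 and 60 min did not pass the test for these last 4 genes.

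How many genes were called rested on single arrays. With each of the 9 arrays left out in turn, between 16 and 574 probe sets were called. Without 30 min replicate a there were 308 calls, 62 higher and 246 lower. Without 60 min replicate b, which enters only through the shared spread and the filter, there were 574. Without any 1 of the 0 min arrays there were 16 to 23, without 30 min b 23, without 30 min c 17, without 60 min a 67 and without 60 min c 37. The calls kept in all 9 fits were 15 rises from 13 genes, namely Fos, Egr1, Nr4a1, Ccn2, Ier2, Dusp1, Junb, Phlda1, Ccn1, Errfi1, Ier3, Dusp6 and Btg2, and 1 fall, Rsrp1.

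**Figure D5:**
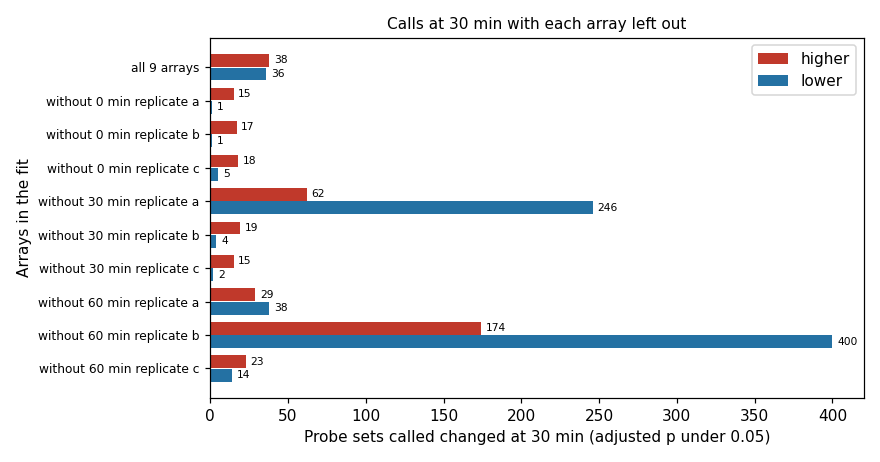
Number of probe sets called higher (red) and lower (blue) at 30 min (horizontal axis, adjusted p under 0.05) with all 9 arrays and with each array left out (vertical axis). All 9 arrays give 38 and 36; leaving out 30 min replicate a gives 62 and 246, leaving out 60 min replicate b 174 and 400, and leaving out 0 min replicate a 15 and 1.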

How the data were processed

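Total RNA of OB-6 cells at 0, 30 and 60 min of PTH (3 arrays each) was measured on 1-colour short-oligonucleotide arrays. The authors deposited 1 linear intensity per probe set and array (0.1 to 8605.242), already scaled between arrays as the values show. The sources used here name neither the summary method nor the software. The intensity was converted to log2(intensity + 11.802), the 20th percentile of all values, and used without further scaling. Probe sets above 44.694, the 40th percentile, on at least 3 arrays were tested (7884), without the 66 controls.

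The model, in limma 3.58.1 under R 4.3.3, held a mean for each time over the 9 arrays (lmFit, then eBayes with trend; residual degrees of freedom 6, prior 4.68). All adjusted p-values are limma's, by Benjamini-Hochberg over all tested probe sets, and the threshold was 0.05. Names came from the platform annotation (10833 probe sets with 1 symbol, 396 with several, 1193 with none; 10817 Entrez identifiers matched the RefSeq table). In the 38 gene lists (1366 names, 928 genes tested of 5936) a gene was represented by its brightest probe set, and lists were described by counts and medians without a test.

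Named outside the immediate-early list were, in size order, the first 15 rises and first 15 falls called from probe sets with 1 symbol and no overlap between the times, every called member of a list, the 2 brightest of a list with no call, Pth1r and 10 other fixed genes, and any other called probe set with 1 symbol. Other members named as not called were picked after their values were seen. The genes and lists were chosen with earlier results of these data known. Promoters are 250 bases before RefSeq starts of GRCm38.p6. Alternatives were another constant, filter, normalization, prior, array weights, the 6 arrays alone, a block of the replicate letters and each array left out. The code was tested on simulated data. Python 3.11.15, scipy 1.17.1 and matplotlib 3.10.9 were used for lists, exact tests and figures.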

Additional observations from a re-analysis of the deposited data

Results flagged for a closer look

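For 2 of the genes that rose at 30 min, the response at 60 min differed from that at 30 min when the times were compared directly in limma's test. Fos was lower at 60 than at 30 min by a log2 difference of -1.992, reading 219.6, 160.3 and 128 at 60 min. Dusp1 was lower by a log2 difference of -0.8848. In both, every array at 60 min lay below every array at 30 min and above every array at 0 min.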

How the results depend on the processing

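No probe set called at 30 min changed direction under any setting run. The 74 calls (38 higher, 36 lower) became 56 (32 and 24) with a constant of 1, 113 (41 and 72) with the 40th percentile as constant, 39 (24 and 15) without the filter, 87 (38 and 49) with a filter on all arrays of 1 time, 144 (52 and 92) after quantile normalization, 101 (40 and 61) with a common 75th percentile, 92 (32 and 60) after cyclic loess, 389 (105 and 284) with the 6 arrays alone, 40 (26 and 14) without the variance trend and 2381 (1187 and 1194) with array weights, which ran from 0.195 to 3.79. Of the 74 calls, 18 were lost with a constant of 1, 38 without the filter, 37 without the trend and 6 after cyclic loess (Foxred1, Plk2, Socs1, Mcm2, Rfc5 and Tk1); 0 were lost under the other 6 of these settings. Foxred1, Plk2, Mcm2, Rfc5 and Tk1 were lost under all 4. Mc3r, Casp1, Htatsf1, Elovl6, Smc6, Tmem30a, Zfp62 and Zfp322a were lost under the first 3, and Socs1 under the last 3. Clk1, Id1 and Smc4 were lost only without the trend. With a log2 fold change of at least 1 required as well, 50 remained (19 and 31). With the replicate letter as a replicate block, 259 were called (58 and 201), including all 74; the same-letter correlations of the deviations at 0 and 30 min were 0.0545, -0.00338 and 0.0315. Between 30 and 60 min they were 0.304, 0.251 and 0.0224, and between 0 and 60 min 0.0776, -0.0629 and -0.128. For unlike letters, 30 min a with 60 min b had -0.266 and 30 min b with 60 min a -0.264. The highest of unlike letters between 30 and 60 min was 0.0523. Between 0 and 60 min unlike letters ran from -0.122 to 0.179. Not every same-letter pair was over 0.1, nor did every array correlate best with its own letter, so the letters were not taken as pairing the samples, which share a letter without a stated culture or day. With 1 array left out, the count ran from 16 to 574, the rises from 15 to 174 and the falls from 1 to 400. The number of arrays and signal near the floor limit what these data can show. Every array of the lower time was under the level needed for testing for 2 rises, Fos and Unc5c. The same held for 5 falls, Gm4788, Zfp982, Zfp943, Hnrnpu and Rbmx. With these included, at least 1 such array was under it for 5 rises and 13 falls.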
